A study of Mus musculus with 3 samples.

Results

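The 3 siBrca1 libraries came from mouse embryonic fibroblasts (MEFs) that were transfected with siRNAs against Brca1 before reprogramming to pluripotency was induced, and they are described here against 3 libraries of a non-targeting siRNA (nt) and 5 libraries of mock-transfected cells (Mock). They are 3 of 127 libraries used, and were chosen by the condition named in the column headers, with 1 library in each of 3 sequenced pools, numbered as replicates 1, 2 and 3. All groups were wild-type BL6 MEFs at passage 2 that carried lentiviral, doxycycline-inducible Oct4, Sox2, Klf4 and c-Myc. The cells of the siBrca1 and nt groups received pooled siRNA at 40 nM. After 24 h, reprogramming was started with doxycycline at 2 μg/mL, chiron at 3 μM, Alk5 inhibitor at 0.25 μM, ascorbic acid at 50 μg/mL and LIF, and RNA of the whole well was taken at day 6. CEL-Seq2, a 3′ end method that counts molecules by a unique molecular identifier (UMI), gave the counts. Libraries of siBard1 and siWdr5, and libraries labelled by day of a time course of reprogramming, served for comparison. Nothing in the labels says whether the 3 replicates were separate cell preparations, so that p-values measure the spread between libraries, which may in part be technical.

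Brca1 encodes a large nuclear protein that forms a ubiquitin ligase with its partner Bard1 and acts in the repair of DNA double-strand breaks by homologous recombination. In fibroblasts that are being reprogrammed, the first days see the loss of the fibroblast program, with its collagens, contractile proteins and mesenchymal transcription factors, and a mesenchymal-to-epithelial transition. Wdr5 is a WD-repeat protein of the histone H3 lysine 4 methyltransferase complexes.

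Designed siRNA duplexes against Brca1 are shown because their position fixes which transcripts each duplex could target. The guide strands are given 5′ to 3′ with the seed, bases 2 to 8, in capitals. Of the 3 siRNAs pooled for each gene, 2 are shown here, so that the reach of the whole pool is not given.
siRNA 1 guide: aAGGACAUugugaaggccctt
siRNA 1 sense: gggccuucacaauguccuutt
siRNA 2 guide: aCUAAACCuugugcuuccctg
siRNA 2 sense: gggaagcacaagguuuagutt
The target of siRNA 1 lies at chr11:101535553-101535571 on the minus strand (GRCm38, the assembly also called mm10), in exon 4 of Brca1, and is found in 3 of 7 annotated Brca1 transcripts. The target of siRNA 2 lies at chr11:101534000-101534018, in exon 5, and is found in 2 of 7 transcripts. Exons are numbered in the longest annotated transcript with a match, and neither 19-base target was found in a transcript of another gene.

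Knockdown of Brca1 could not be read from these libraries. Brca1 had 1, 1 and 2 counts in the siBrca1 libraries, 0, 1 and 1 in nt and 1, 0, 0, 0 and 0 in Mock. This gives a ratio of siBrca1 to nt of 2.81 with an exact 95% interval from counting of 0.403 to 31.1. The label was therefore not checked by its target. None of the 12 genes in a list of Brca1 and its partners reached the level needed for a test, 0 of 12, where 3013 genes did. Bard1 had 2 counts over the siBrca1 libraries and 2 over nt, Palb2, which links Brca1 to Brca2, had 0 and 4. Brca2 had 4 and 10 (ratio 0.563, interval 0.129 to 1.95). Rbbp8, a DNA end resection factor, had 9 and 11 (ratio 1.15, interval 0.422 to 3.06). These intervals cover counting error only.

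The siBrca1 libraries held 53292, 47592 and 91364 counts in replicates 1, 2 and 3, against 75100, 80136 and 143156 for nt and 38925 to 83089 for Mock, so that siBrca1 was measured at lower depth than nt. A single count was worth 20.7, 22.8 and 11.8 CPM in the siBrca1 libraries, where CPM are counts scaled to the normalised total of the tested genes. Mitochondrially encoded genes took 19.1, 19.7 and 16.7% of the counts in siBrca1, 26.3, 24.4 and 22.8% in nt and 22.9 to 28.6% in Mock, without overlap. Fibroblast markers were detected in every group: the summed level of 10 markers, scaled here and for the other markers to all counts of a library, was 2080.2 to 3246 CPM in siBrca1, 1593 to 2264 in nt and 1781 to 2803 in Mock. The markers of endothelial cells, macrophages and skeletal muscle were at low sums. The 10 endothelial markers summed to 0 to 56.3 CPM in siBrca1, 0 to 26.6 in nt, with Pecam1, Cdh5, Tie1, Emcn and Cldn5 at 0. The 10 macrophage markers summed to 18.8 to 105 CPM in siBrca1 and 13.3 to 25 in nt, with Cd68 and C1qa at 0. Those of skeletal muscle summed to 56.3 to 84 and 12.5 to 79.9, with Myod1, Myog, Myf5, Actc1 and Tnnt2 at 0. The neural markers summed to 339 to 693 CPM in siBrca1 and 321 to 373 in nt, with Sox10 and Fabp7 at 0. Pluripotent markers (65.7 to 84 in siBrca1, 48.9 to 173 in nt; Lin28a and Zfp42 at 0) and epithelial markers (18.8 to 126 and 119.8 to 126; Cldn7 at 0) overlapped between the groups. The RNA is from bulk wells, in which fewer cells of a type and less RNA per cell cannot be told apart.

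To ask what siBrca1 changed, its libraries were compared with nt by edgeR's quasi-likelihood test with the replicate as a block. Genes of the extracellular matrix, the actin cytoskeleton and the lysosome were among those higher in siBrca1, and genes of glycolysis, both mitochondrial ribosomal RNAs and a series of processed pseudogenes were among those lower. Of 3013 genes tested, 127 passed an adjusted p of 0.05, 75 higher and 52 lower in siBrca1, or 4.22% in either direction, 2.49% higher and 1.73% lower. The higher genes changed by a median of 1.32 and the lower genes by a median of 1.12 on the log2 scale, where the median of all genes tested was -0.0035. The count fell to 43 without the replicate block and to 52, 45 and 29 without replicate 1, 2 and 3, so that many of these calls rest on all 3 libraries. Among 61 named genes that passed, 7 passed with each replicate left out in turn: Thbs1, Sparc, Timp2, Tcf4, Pgk1, mt-Rnr1 and mt-Rnr2. The siBrca1 and nt libraries did not overlap for 63 of the 75 higher and 45 of the 52 lower genes. Among all 3013 genes tested, 495 (16.4%) did not overlap.

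**Figure D1:**
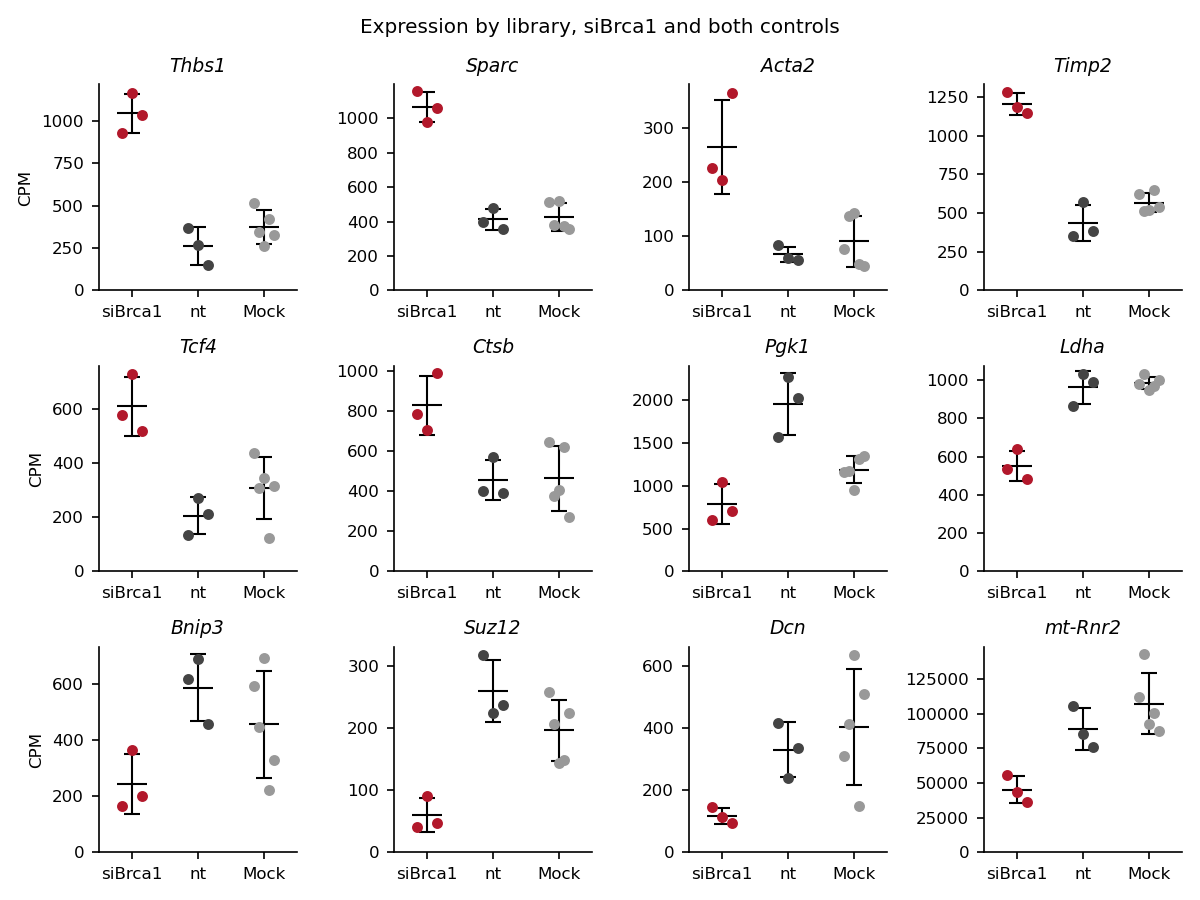
Normalised expression (CPM, linear axes from 0) of 12 genes in each siBrca1, nt and Mock library (points, in order of replicate), with the mean and SD of each group (bars). Thbs1, Sparc and Timp2 in the siBrca1 libraries lie above every nt and Mock library, and Suz12, Dcn, Ldha and mt-Rnr2 lie below them.

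Several genes of matrix glycoproteins, which bind cells and collagen fibres outside the cell, were higher in siBrca1. Thbs1, which encodes thrombospondin 1 (chr2:118111876-118127133), was at 929.9, 1163 and 1036 CPM in siBrca1, 366, 269 and 147 in nt and 516, 343, 259, 422 and 328 in Mock. Every siBrca1 library lay above every library of both controls. The log2 fold change was 2.12 ± 0.26 against nt (SE, edgeR adjusted p = 1.05e-10) and 1.5 ± 0.24 against Mock (adjusted p = 1.89e-06). Sparc, a collagen-binding glycoprotein (chr11:55394500-55423183), was at 1157, 980.2 and 1060.0 CPM in siBrca1, 399.7, 479 and 359 in nt and 516, 378, 519, 372 and 358 in Mock, again without overlap. It changed by 1.39 ± 0.23 against nt (adjusted p = 1.24e-06). Fbn2, the microfibril protein fibrillin 2, was at 310.0, 91.2 and 177 CPM in siBrca1 and 16.7, 29.9 and 40.8 in nt, with Mock at 0 to 68.7, and changed by 2.53 ± 0.58 (adjusted p = 0.00256, and 0.134 without replicate 1). Fstl1, a secreted follistatin-like glycoprotein, changed by 0.89 ± 0.27 (adjusted p = 0.0310), and did not pass with any one replicate left out (adjusted p 0.126 to 0.330). Over the matrix glycoprotein list, 20 of 37 genes were tested, 6 were higher (2.49% of all genes were), 1 was lower (1.73% of all genes were), 14 were fitted higher and the median was 0.94. The gene that fell was Dcn, the small proteoglycan decorin, at 145, 114 and 94.2 CPM in siBrca1 against 416, 239 and 335 in nt and 309.7, 412, 634, 149 and 508 in Mock. The change was -1.53 ± 0.38 (adjusted p = 0.00665, and 0.232 without replicate 3). Against Mock, Dcn changed by -1.86 ± 0.36 (adjusted p = 1.55e-04).

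Collagen genes were fitted higher in siBrca1 in 9 of 9 cases with a median of 1.00, and 2 passed as higher, against 2.49% of all genes. Col1a1, one chain of fibrillar type I collagen, was at 269, 296 and 577 CPM in siBrca1 and 167, 209 and 139 in nt, which did not overlap. It changed by 1.3 ± 0.33 (adjusted p = 0.00721, and 0.677 without replicate 3). Col1a2, the other chain, was at 806, 319 and 707 and 349.7, 284 and 310.4, with replicate 2 of siBrca1 inside the range of nt. Col1a2 changed by 1.00 ± 0.27 (adjusted p = 0.0117; 0.158 without replicate 1 and 0.291 without replicate 3). Neither passed against Mock (adjusted p = 0.0743 and 0.111), where 8 of 9 collagens were fitted higher.

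Of the list of proteases and their inhibitors, 3 of 7 genes tested passed as higher, against 2.49% of all genes, with a median of 0.88. Timp2, a tissue inhibitor of metalloproteinases, was at 1281, 1185 and 1142 CPM in siBrca1, 349.7, 568.3 and 384 in nt and 619, 515, 519, 645 and 537 in Mock. The siBrca1 libraries were above all others, with a change of 1.48 ± 0.23 against nt (adjusted p = 2.15e-07) and 1.13 ± 0.21 against Mock (adjusted p = 8.36e-05). Timp3 changed by 1.75 ± 0.48 (adjusted p = 0.0160) and Serpine2, an inhibitor of serine proteases, by 0.85 ± 0.27 (adjusted p = 0.0441), and neither passed with any one replicate left out (adjusted p 0.0552 to 0.327 for Timp3 and 0.0849 to 0.397 for Serpine2). Prss23, a secreted serine protease outside the list, was at 227, 159.6 and 200.2 CPM in siBrca1, 66.6, 74.8 and 16.3 in nt and 14.9 to 103 in Mock. The change was 2.09 ± 0.51 (adjusted p = 0.00584, and 0.324 without replicate 3).

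Some contractile and actin-associated genes were higher in siBrca1. Acta2, smooth muscle actin (chr19:34241090-34255590), was at 227, 205 and 365 CPM in siBrca1, 83.3, 59.8 and 57.2 in nt and 77.4, 137, 144, 49.6 and 44.8 in Mock. No siBrca1 library reached down to either control, and the change was 2.11 ± 0.44 against nt (adjusted p = 6.80e-04, and 0.246 without replicate 3) and 1.77 ± 0.43 against Mock (adjusted p = 0.00483). Myl9, a myosin regulatory light chain, had the largest fitted change, 3.87 ± 0.99 (adjusted p = 0.00921), and rests on 3, 1 and 11 counts in siBrca1 and 0, 0 and 1 in nt, a ratio by counts of 21.1 with an exact interval of 3.25 to 889. Leaving out replicate 1 or 3 ended the call of Myl9 (adjusted p = 0.0526 and 0.308), and it did not pass against Mock, which overlapped siBrca1 (adjusted p = 0.106). Palld, which encodes the actin cross-linker palladin, likewise rests on 14 counts against 2 (ratio 9.85, interval 2.26 to 89.3), with an adjusted p of 0.0408 against nt, 0.0617 to 0.732 with one replicate left out and 0.570 against Mock. Of the contractile list 8 genes were tested, all fitted higher with a median of 2.46, and 2 passed as higher, against 2.49% of all genes. The others included Tagln, transgelin, at 41 CPM (SD 18, n = 3) against 4.99 CPM (SD 8.63, n = 3), which did not pass (adjusted p = 0.151), and Cald1, caldesmon, at 545 CPM (SD 262, n = 3) against 318 CPM (SD 25, n = 3) (adjusted p = 0.108). In the list of actin and adhesion genes, 6 of 24 passed, all higher (2.49% of all genes were), with a median of 0.73. Msn, the membrane-actin linker moesin, was at 310.0, 296 and 377 CPM in siBrca1, 167, 105 and 131 in nt and 74.6 to 144 in Mock. It changed by 1.32 ± 0.34 (adjusted p = 0.00901). Flna, the actin cross-linker filamin A, was at 207, 182 and 271, 83.3, 29.9 and 89.9 and 29.9 to 129. The log2 fold change was 1.65 ± 0.43 (adjusted p = 0.00967). In both, siBrca1 stood above nt and Mock without overlap, while the calls did not hold without replicate 2 or 3 (adjusted p = 0.0931 and 0.255 for Msn, 0.119 and 0.173 for Flna). Actn1, alpha-actinin 1, changed by 1.52 ± 0.41 (adjusted p = 0.0143; 0.0731 to 0.212 with one replicate left out) and Actb, beta-actin, by 0.62 ± 0.19 (adjusted p = 0.0334; 0.117 without replicate 1 and 0.611 without replicate 3), of which Actb overlapped nt. The other 2 were Palld and Actg1, the cytoplasmic gamma-actin. Parva, the adhesion protein alpha-parvin, was outside the list and changed by 2.19 ± 0.59 (adjusted p = 0.0140; 0.0744 to 0.141 with one replicate left out). Actn1, Actb and Parva did not pass against Mock (adjusted p = 0.0753, 0.148 and 0.328).

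The promoters of these genes were read for an exact match to the CArG box, the DNA element bound by serum response factor. The pattern was CCWWWWWWGG, where W is A or T. The window from 250 bases before to 50 bases after the annotated start held it in 2 of 9 windows of 7 called contractile and actin genes matched to the promoter table, all but Actb of the 8 called (Acta2, Myl9, Actg1, Actn1, Flna, Palld and Msn), on either strand, against 1.63% of all promoter windows and 1.94% of those of tested genes. The window with a match at Myl9, chr2:156775214-156775513 on the plus strand (RefSeq, GRCm38.p6), is shown with the box in capitals, since Myl9 had the largest fitted change.
Myl9 promoter: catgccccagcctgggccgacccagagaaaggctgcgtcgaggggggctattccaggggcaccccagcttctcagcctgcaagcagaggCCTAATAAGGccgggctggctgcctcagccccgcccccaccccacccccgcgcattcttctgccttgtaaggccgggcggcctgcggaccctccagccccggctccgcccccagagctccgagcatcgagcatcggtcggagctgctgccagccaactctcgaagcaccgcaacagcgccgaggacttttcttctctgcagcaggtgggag
The other match was at Actg1. A match is a description of the sequence and was not tested for binding. Boxes that depart from the exact pattern were not counted, so that a window without a match may still hold one.

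Mesenchymal transcription factors were among the higher genes. Tcf4, a basic helix-loop-helix factor, was at 579, 729 and 518 CPM in siBrca1, 133, 269 and 212 in nt and 439, 309, 346, 124 and 313 in Mock. It lay above both controls in each siBrca1 library and changed by 1.5 ± 0.29 against nt (adjusted p = 9.70e-05) and 0.96 ± 0.27 against Mock (adjusted p = 0.0224). Prrx2, a paired-related homeobox factor of mesenchyme, was at 269, 91.2 and 224 CPM in siBrca1 and 33.3, 15 and 73.5 in nt, with 1 Mock library at 124 CPM inside the siBrca1 range. The change was 2.06 ± 0.48 (adjusted p = 0.00364, and 0.117 without replicate 1). They were the 2 genes that passed of 13 tested in the mesenchymal list, against 2.49% of all genes called higher. All 13 were fitted higher, as were 1500 of all 3013 genes, with a median of 0.88. Among the fibroblast markers that did not pass, the log2 fold change was 0.68 ± 0.31 for Thy1 (adjusted p = 0.235), 0.51 ± 0.21 for the intermediate filament gene Vim (adjusted p = 0.150), 1.15 ± 0.44 for Col3a1 (adjusted p = 0.129), 1.55 ± 0.93 for Postn (adjusted p = 0.442) and -0.47 ± 0.36 for Lum (adjusted p = 0.579).

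Of the lysosomal genes, 5 of 11 tested rose, against 2.49% of all genes, with 0 lower and a median of 0.68. Ctsb, the protease cathepsin B, was at 785, 707 and 989 CPM in siBrca1, 399.7, 568.3 and 392 in nt and 645, 378, 404, 621 and 269 in Mock, above both controls throughout. It changed by 0.94 ± 0.22 (adjusted p = 0.00364, and 0.386 without replicate 3). Npc2, a lysosomal cholesterol carrier, changed by 0.76 ± 0.22 (adjusted p = 0.0302), Psap, the precursor of the saposins, by 1.93 ± 0.53 (adjusted p = 0.0150) and Cd63, a membrane tetraspanin of late endosomes, by 0.68 ± 0.19 (adjusted p = 0.0207). With one replicate left out the adjusted p was 0.0526 to 0.579 for Npc2 and 0.114 to 0.252 for Cd63, and for Psap it was 0.233 without replicate 1 and 0.173 without replicate 3. Against Mock, 2 of the 11 passed as higher (1.46% of all genes did), Ctsb at 0.99 ± 0.22 (adjusted p = 0.00159) and Ctsd, and Psap was at 0.74 ± 0.45 (adjusted p = 0.468).

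Cdkn1a, the cyclin-dependent kinase inhibitor p21, was at 558, 638 and 777 CPM in siBrca1 and 383, 404 and 343 in nt, without overlap. The log2 fold change was 0.86 ± 0.24 (adjusted p = 0.0189; 0.0514 to 0.483 with one replicate left out). In Mock it was at 799.9, 515, 749, 769.6 and 254, on both sides of siBrca1, and the change against Mock was 0.25 ± 0.22 (adjusted p = 0.645). It was the 1 gene that passed of 13 tested among p53 targets, where 4.22% of all genes passed. The median of that list was -0.11 and turned to 0.18 without replicate 3. Il1rl1, the receptor of interleukin 33, changed by 1.25 ± 0.33 (adjusted p = 0.0119) and Hmga2, an architectural chromatin protein, by 0.76 ± 0.20 (adjusted p = 0.0102). In both, replicate 1 was the highest of the siBrca1 libraries, at 1013 CPM for Il1rl1 and 2376 CPM for Hmga2, and without it the adjusted p was 0.646 and 0.434. Without replicate 2 it was 0.0556 and 0.126, so that both calls were lost there too. Adm, the peptide hormone adrenomedullin, was at 20.7, 205 and 94.2 CPM in siBrca1 against 0, 29.9 and 16.3 in nt, with overlap. The change was 2.55 ± 0.77 (adjusted p = 0.0345; 0.0921 to 0.301 with one replicate left out). Slc25a24, an ATP-magnesium carrier, was at 248, 182 and 118 CPM against 33.3, 0 and 49 in nt and 68.7 to 206 in Mock. Mtfr1l, a mitochondrial fission regulator, was at 62, 137 and 106 against 0, 15 and 32.7 and 14.9 to 137. Both overlapped Mock, and neither passed against it (adjusted p = 0.657 and 0.536). Against nt both passed (adjusted p = 0.00276 and 0.0434), but not without replicate 1 (0.0921 and 0.171) or replicate 2 (0.103 and 0.308). Lama4, a laminin chain of basement membranes, was at 82.7, 45.6 and 129.6 CPM in siBrca1 and 0, 15 and 24.5 in nt, with Mock at 0 to 59.7. It rests on 17 counts against 4 and changed by 2.43 ± 0.76 (adjusted p = 0.0434; 0.234 without replicate 1 and 0.119 without replicate 2). Without replicate 3 it was not tested, and it did not pass against Mock (adjusted p = 0.338).

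**Figure D2:**
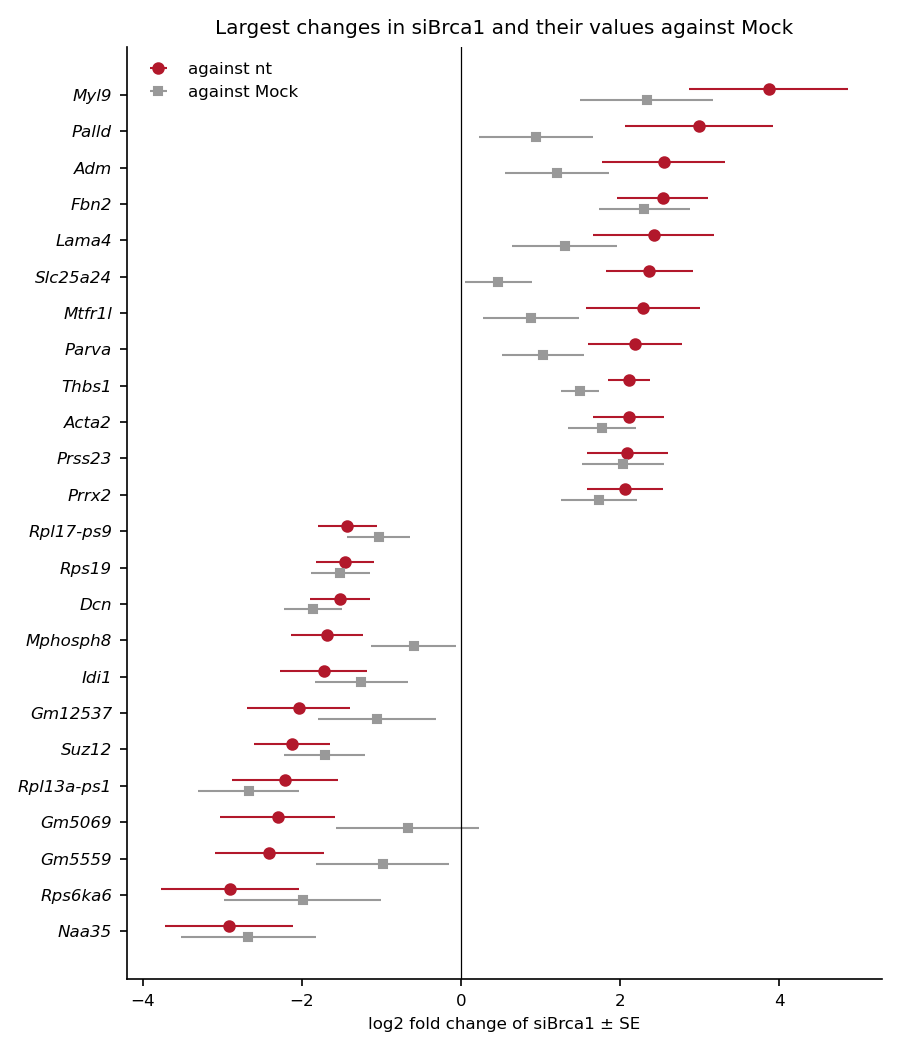
Log2 fold change of siBrca1 with its standard error for the 12 largest rises and 12 largest falls against nt (circles), with the change of the same genes against Mock (squares). All 24 lie on the same side of 0 in both comparisons, which share the siBrca1 libraries, and they are smaller against Mock for all but Dcn, Rps19 and Rpl13a-ps1, as for Slc25a24 (2.37 and 0.47).

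Of the glycolytic genes, 4 of 10 tested fell in siBrca1, against 1.73% of all genes, with 0 higher and a median of -0.50. Pgk1, phosphoglycerate kinase (chrX:106187100-106203699), was at 599, 1049 and 707 CPM in siBrca1, 1565, 2273 and 2026 in nt and 1161, 1167, 951, 1316 and 1343 in Mock. The siBrca1 libraries lay below nt, and replicate 2 lay within the range of Mock. Pgk1 changed by -1.34 ± 0.20 against nt (adjusted p = 1.02e-07), and by -0.64 ± 0.20 against Mock, which did not pass (adjusted p = 0.0572). Ldha, lactate dehydrogenase A, was at 537, 638 and 483 CPM in siBrca1, 866, 1032 and 988 in nt and 981, 1030.0, 951, 968 and 1000.1 in Mock, below both controls, with -0.84 ± 0.21 against nt (adjusted p = 0.00788; 0.0523 without replicate 2 and 0.270 without replicate 3) and -0.88 ± 0.21 against Mock (adjusted p = 0.00273). Tpi1, triosephosphate isomerase, changed by -0.92 ± 0.28 (adjusted p = 0.0375) and Pkm, pyruvate kinase, by -0.68 ± 0.21 (adjusted p = 0.0345), and under RLE size factors, another scaling, both were just outside the threshold (adjusted p = 0.0507 for Tpi1 and 0.0552 for Pkm). Pkm overlapped nt, and neither passed without replicate 1 (adjusted p = 0.317 and 0.188) or replicate 3 (0.304 and 0.118). Against Mock, Ldha was the 1 of the 10 that passed, as lower (1.73% of all genes did), and the adjusted p was 0.385 for Tpi1 and 0.0799 for Pkm. Bnip3, a mitophagy receptor induced at low oxygen, was at 165, 365 and 200.2 CPM in siBrca1 and 616, 688 and 457 in nt, without overlap, but at 594, 446, 692, 223 and 328 in Mock. It changed by -1.27 ± 0.30 against nt (adjusted p = 0.00449, and 0.0731 without replicate 1) and -0.83 ± 0.32 against Mock (adjusted p = 0.133). Of 5 tested genes of the low-oxygen list, Bnip3 was lower (1.73% of all genes were) and Adm higher (2.49% of all genes were), with a median of -0.96.

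The core ACGTG of the hypoxia response element, searched on both strands, was found in 4 of 7 promoter windows of Tpi1, Pgk1, Pkm, Ldha and Bnip3, against 19.6% of all windows and 28.6% of those of tested genes. The windows of Pgk1 at chrX:106186850-106187149 and Ldha at chr7:46845554-46845853, both on the plus strand, are shown with every match in capitals, because these genes held the lowest p-value of the list and the most matches.
Pgk1 promoter: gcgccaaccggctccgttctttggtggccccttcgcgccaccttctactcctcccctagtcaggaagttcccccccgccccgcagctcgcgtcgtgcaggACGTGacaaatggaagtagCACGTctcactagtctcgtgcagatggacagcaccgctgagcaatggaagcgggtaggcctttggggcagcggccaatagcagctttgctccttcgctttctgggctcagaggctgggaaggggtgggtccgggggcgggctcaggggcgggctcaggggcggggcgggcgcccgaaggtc
Ldha promoter: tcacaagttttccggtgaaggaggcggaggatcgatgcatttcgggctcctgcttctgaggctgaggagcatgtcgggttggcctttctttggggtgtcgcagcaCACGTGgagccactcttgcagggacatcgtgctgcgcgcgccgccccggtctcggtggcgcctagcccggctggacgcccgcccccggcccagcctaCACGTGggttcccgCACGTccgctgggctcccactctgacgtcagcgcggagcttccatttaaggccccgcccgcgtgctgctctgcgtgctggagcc
ACGTG and CACGT read the same site on opposite strands, and CACGTG counts once on each strand. Pgk1 held 2 matches and Ldha 5.

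The largest falls included Suz12, Mphosph8, Naa35 and Rps6ka6. Suz12, a core subunit of Polycomb repressive complex 2 (chr11:79993106-80034123), was at 41.3, 91.2 and 47.1 CPM in siBrca1, 316, 224 and 237 in nt and 258, 206, 144, 149 and 224 in Mock. No siBrca1 library reached either control, with a change of -2.13 ± 0.48 against nt (adjusted p = 0.00237, and 0.0802 without replicate 3) and -1.71 ± 0.51 against Mock (adjusted p = 0.0347). Mphosph8, a chromodomain protein of the HUSH silencing complex, was at 82.7, 91.2 and 47.1 CPM in siBrca1 and 199.8, 284 and 196 in nt, and overlapped Mock at 51.6 to 202. The log2 fold change was -1.69 ± 0.46 (adjusted p = 0.0131; 0.101 without replicate 2 and 0.270 without replicate 3). Naa35, a subunit of the NatC acetyltransferase, and Rps6ka6, a ribosomal S6 kinase, each had 1, 0 and 1 counts in siBrca1, 24 over nt, and 17 and 11 over Mock, a ratio of nt to siBrca1 of 8.53 with an exact interval of 2.12 to 74.4 for both. Neither passed without replicate 1 (adjusted p = 0.0502 for Naa35 and 0.0998 for Rps6ka6) or replicate 2 (0.158 and 0.143), and without replicate 3 both missed the low-count filter. Neither passed against Mock (adjusted p = 0.0525 and 0.329). The 3′ untranslated regions of the lower genes were searched for the match to the siRNA seeds, ATGTCCT for siRNA 1 and GGTTTAG for siRNA 2. A match to siRNA 1 was found in 2 of 26 lower genes with an annotated region, Suz12 and Serbp1, and in 13.7% of 2404 tested genes. A match to siRNA 2 was also found in 2 of 26, Rps6ka6 and Serbp1, and in 8.82% of tested genes. Among the higher genes the shares were 5.80% and 10.1%. The median length of the region was 706 bases in the lower, 997 in the higher and 1315 in all tested genes, and the shares were not adjusted for it. Only the seeds of the 2 siRNAs shown were searched.

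Of the cell cycle lists, 1 of 12 replication genes and 2 of 30 mitosis genes passed, all lower, against 1.73% of all genes. Dut, which removes dUTP during DNA synthesis, was at 496, 296 and 129.6 CPM in siBrca1 and 716, 808 and 441 in nt, with overlap. The change was -1.16 ± 0.26 (adjusted p = 0.00237; 0.0746 without replicate 2 and 0.118 without replicate 3). The median of the replication list was 0.20 and turned to -0.25 without replicate 1. Hmgb2, a chromatin protein of proliferating cells, was at 145, 91.2 and 129.6 CPM in siBrca1, 299.8, 299 and 261 in nt and 490.3, 206, 173, 348 and 522 in Mock, below both controls. It changed by -1.18 ± 0.38 against nt (adjusted p = 0.0487; 0.134 to 0.276 with one replicate left out, 0.0657 under RLE size factors and 0.0633 by DESeq2) and -1.58 ± 0.36 against Mock (adjusted p = 0.00211). With Arl6ip1, a membrane-shaping protein of the endoplasmic reticulum, at -0.62 ± 0.17 (adjusted p = 0.0182; 0.114 without replicate 2 and 0.414 without replicate 3), it made up the called genes of the mitosis list. Against Mock, 4 of the 30 were called lower, against 1.73% of all genes. The median of that list was -0.39 against nt and 0.21 against Mock, of opposite sign. Of 37 homologous recombination genes, 3 were tested and 0 passed against nt by edgeR, DESeq2 or limma, with 0 at an unadjusted p under 0.05.

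The mitochondrial ribosomal RNAs fell in siBrca1. mt-Rnr2, the 16S rRNA, was at 55627, 43652 and 36123 CPM in siBrca1, 105430.0, 85323 and 76008 in nt and 112249, 143037, 92702, 100490.0 and 87814 in Mock. mt-Rnr1, the 12S rRNA, was at 39530.2, 32961 and 36111, 68344, 60766 and 77388 and 75504, 84840.3, 65260.1, 66555 and 73857. The siBrca1 libraries were lowest without overlap for both. The change was -0.98 ± 0.16 (adjusted p = 1.22e-06) and -0.92 ± 0.15 (adjusted p = 1.45e-06) against nt. They belong to a list of 37 mitochondrially encoded genes, of which 17 were tested, 3 were lower (1.73% of all genes were) and 0 higher, with a median of -0.22. The third was mt-Nd5, a subunit of complex I, at -0.53 ± 0.14 (adjusted p = 0.0100; 0.0552 to 0.0975 with one replicate left out), which overlapped nt. With the mitochondrially encoded genes left out before scaling, a setting chosen after their share was seen, 119 genes passed against nt, 118 of them among the 127.

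Processed pseudogenes made up a large part of the lower genes. Of 50 lower genes with an annotation, 20 (40.0%) were pseudogenes, against 1 of 75 higher genes (1.33%) and 16.2% of tested genes with an annotation. Gm5611, at 1966 CPM in siBrca1 against 5274 in nt, and Gm17060, at 1696 against 4536, were the pseudogenes with the lowest p-values, with log2 fold changes of -1.42 ± 0.20 and -1.39 ± 0.19. Their closest coding gene by shared 25-base words was Npm1, the nucleolar protein nucleophosmin, with 63.8% of the words of Gm5611 and 12.8% of those of Gm17060, and Npm1 itself was at -0.34 ± 0.14 (adjusted p = 0.166). Gm14681 and Gm14776 also had Npm1 as the closest coding gene and changed by -0.81 ± 0.19 and -1.14 ± 0.20. Gm12346 and Gm5844 were closest to Hsp90aa1, the inducible cytosolic HSP90 chaperone, which changed by -0.51 ± 0.13 (adjusted p = 0.00967), and Gm6204 and Gm8730 were closest to Rps14 and Rplp0. For all 20 the closest coding gene was fitted lower in siBrca1, and for 4 of them it also passed. Of all 3013 genes tested, 1500 were fitted higher and 1.73% passed as lower. A coding gene counts once for each of its copies, as Npm1 and Hsp90aa1 do, so that the 20 are not independent. Some of these fits were near 0, as for Rpl13a (-0.02 ± 0.37). Gm5559 and Gm12537 shared all their words with Gapdh, and 60 genes, Gapdh among them, shared a large part of them. Reads of such copies and of their parents can be assigned to either, so that which locus gave the counts is uncertain.

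Of 70 cytoplasmic ribosomal protein genes tested, 4 passed, 1 higher and 3 lower, where 4.22% of all genes passed, with a median of -0.16. Against Mock, 1 was higher (1.46% of all genes were) and 7 were lower (1.73% of all genes were), with 21 at an unadjusted p under 0.05, as were 445 of all 3013 genes, and a median of -0.25. Rps19, of the small subunit, was at 145, 114 and 106 CPM in siBrca1, 316, 165 and 449 in nt and 439, 275, 202, 223 and 358 in Mock, below both controls. The log2 fold change was -1.46 ± 0.37 (adjusted p = 0.00721, and 0.585 without replicate 3). Rps14 changed by -0.71 ± 0.19 (adjusted p = 0.0103; 0.234 without replicate 1 and 0.162 without replicate 2), Rplp0 by -0.72 ± 0.19 (adjusted p = 0.0100) and Rplp2, in the opposite direction, by 0.78 ± 0.24 (adjusted p = 0.0345). Eef1a1, the elongation factor that delivers aminoacyl-tRNA, was at 248, 205 and 177 CPM in siBrca1 and 449.6, 479 and 384 in nt. The change was -1.06 ± 0.29 (adjusted p = 0.0141; 0.0552 to 0.203 with one replicate left out), the 1 of 42 translation factors that passed, where 4.22% of all genes did. Single genes passed in 4 more lists, to be read against the same share. Hsp90aa1 passed of 21 heat shock genes, and Idi1, an isomerase of isoprenoid synthesis, of 11 sterol and lipid genes (-1.73 ± 0.55, adjusted p = 0.0475). Fth1, the ferritin heavy chain, passed of 18 antioxidant genes (0.56 ± 0.17, adjusted p = 0.0345) and Lgals1, galectin 1, of 12 annexins, S100 proteins and galectins (0.79 ± 0.20, adjusted p = 0.00901). With one replicate left out, Idi1 (adjusted p 0.0867 to 0.281) and Lgals1 (0.0746 to 0.213) did not pass in any fit, and Idi1 did not pass under RLE size factors (0.0627). Hsp90aa1 was lost without replicate 1 (0.139) and replicate 3 (0.173), and Fth1 without replicate 2 (0.402) and replicate 3 (0.295). Rplp0 was lost without replicate 1 (0.145) and replicate 3 (0.126), and Rplp2 in every such fit (0.0622 to 0.659).

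Pluripotency and epithelial genes were mostly below the level that could be tested. Of 30 pluripotency genes 4 were tested and 0 passed by edgeR, DESeq2 or limma, with 1 at an unadjusted p under 0.05, L1td1, an RNA-binding protein of pluripotent cells, at 14.5 CPM (SD 12.6, n = 3) against 86 CPM (SD 43.7, n = 3) (-2.70 ± 0.93, adjusted p = 0.0756). The median over the 4 was -1.09 and turned to 0.15 without replicate 3. Of 28 epithelial genes 3 were tested and 0 passed by any of the 3 tools, with 1 at an unadjusted p under 0.05. At an unadjusted p under 0.05 against nt were 462 of all 3013 genes. No gene passed by edgeR among 6 insulin-like growth factor binding genes (median 0.91, 1 at an unadjusted p under 0.05), 8 collagen-processing genes (0.62, 0), and 8 immediate early genes (0.71, 1). Likewise none passed among 5 interferon-stimulated genes (0.41, 0), 13 genes of the ATF4 response (-0.48, 1), 12 endoplasmic reticulum chaperones (0.29, 1) and 18 nucleolar genes (-0.32, 6), and DESeq2 and limma called 0 in each. The same held for 49 nuclear genes of the respiratory chain (-0.09, 5 at an unadjusted p under 0.05), 21 splicing factor genes (-0.04, 5), 23 proteasome genes (-0.18, 1), 6 histone genes (-0.07, 0) and 7 tubulins (-0.06, 1), apart from 1 tubulin called by DESeq2. Without replicate 3 the median turned to 0.26 for histones and 0.29 for tubulins, which stood at 0.12 without replicate 1. In the list of TGF-beta, YAP and serum response targets, Thbs1 was the 1 gene of 8 that passed, against 2.49% of all genes called higher, with a median of 0.85.

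**Figure D3:**
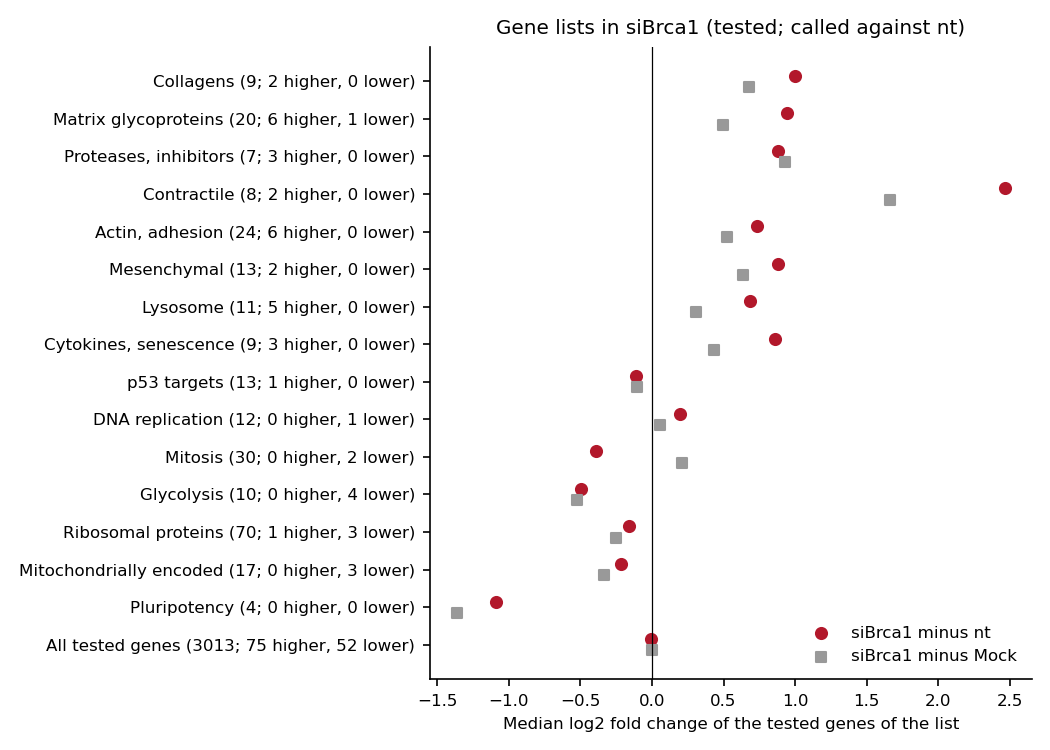
Median log2 fold change of the tested genes of 15 gene lists and of all tested genes, for siBrca1 minus nt (circles) and siBrca1 minus Mock (squares), with the number tested and called against nt in the row names. The contractile list has the highest median (2.46 against nt), glycolysis lies below 0 in both (-0.50 and -0.53), and mitosis changes sign between the controls.

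Against Mock as the second control, 96 genes passed (3.19% of those tested), 44 higher (1.46%) and 52 lower (1.73%). Both comparisons use the same siBrca1 libraries. Of the 75 genes higher than nt, 26 also passed as higher than Mock, which is 26 of the 44 higher than Mock, and of the 52 lower than nt, 17 also passed as lower than Mock, 17 of 52. The genes that passed against both controls include Thbs1, Sparc, Timp2, Acta2, Flna, Msn, Tcf4, Prrx2, Fbn2, Prss23, Ctsb and Lgals1 on the higher side and Suz12, Dcn, Ldha, Rps19, Rps14, mt-Rnr1 and mt-Rnr2 on the lower, with Hmgb2 just inside the threshold against nt. The count against Mock was 46 without the replicate block and 28 to 55 with one replicate left out.

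To ask whether siBrca1 differed from the siRNA against its partner, its libraries were compared directly with siBard1, which leaves nt out of the comparison. At an adjusted p of 0.05, 26 genes differed (0.863%), 20 higher (0.664%) and 6 lower (0.199%) in siBrca1, with 276 at an unadjusted p under 0.05. With no low-count filter the split was 11 and 11. Thbs1 was at 1038, 822 and 1118 CPM in siBard1, a difference of siBrca1 minus siBard1 of 0.03 ± 0.21 (95% interval -0.38 to 0.45, adjusted p = 0.982). The difference was -0.02 ± 0.20 for Sparc (interval -0.41 to 0.37), -0.15 ± 0.19 for Timp2 (-0.54 to 0.23), 0.37 ± 0.23 for Pgk1 (-0.09 to 0.82) and -0.00 ± 0.23 for Ldha (-0.46 to 0.45), none of which passed, and the intervals give the differences that these libraries still allow. Rps19 did differ, at 271, 103 and 486 CPM in siBard1 (-1.41 ± 0.36, adjusted p = 0.0194), and so did mt-Nd5 (-0.75 ± 0.14, adjusted p = 4.71e-05). The strongest differences were in predicted genes outside the named lists, chosen after their values were seen. Gm26870 was at 13679 CPM in siBrca1 and 2292 in siBard1 (2.60 ± 0.20, adjusted p = 3.62e-25). Gm10800 was at 5580 and 1418 (2.00 ± 0.20, adjusted p = 4.79e-16). Gm10717 (2.49), Gm21738 (2.18) and Gm10801 (2.13) differed in the same direction. Gm10717 lies within the span of Gm26870 on chromosome 9, on the other strand. Gm10801 shared 31.4% of its words with Gm10717, and Gm10800 and Gm10717 shared 37.6% and 39.9% with Gm10719. Reads of such related loci can be assigned to either, so that these genes are not independent and their source locus is uncertain. Gm26870 was higher in siBrca1 than in nt (0.64 ± 0.19, adjusted p = 0.0268) and, against the same nt libraries, lower in siBard1 (-1.96 ± 0.20, adjusted p = 1.79e-15). Against Mock, siBrca1 was at 0.21 ± 0.17 for Gm26870 (adjusted p = 0.606) and -0.08 ± 0.17 for Gm10800 (adjusted p = 0.893). Suz12 was at 224, 171 and 118 CPM in siBard1, and its difference of -1.46 ± 0.52 did not pass (adjusted p = 0.245).

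Compared directly with siWdr5, 301 genes differed (9.99%), 210 higher (6.97%) and 91 lower (3.02%) in siBrca1, a split that moved to 151 and 137 under RLE size factors, which shifted the median of all genes by -0.13. Several genes that rose in siBrca1 were lower there than in siWdr5. Col1a1 was at 269, 296 and 577 CPM in siBrca1 and 964, 1023 and 1177 in siWdr5, a difference of -1.37 ± 0.24 (adjusted p = 5.70e-06). Col1a2 differed by -1.05 ± 0.22 (adjusted p = 1.19e-04), Timp3 by -1.08 ± 0.33 (adjusted p = 0.0192), Sparc by -0.68 ± 0.19 (adjusted p = 0.00779) and Thbs1 by -0.61 ± 0.20 (adjusted p = 0.0298). On the lower side Bnip3 was higher in siBrca1 than in siWdr5, at 92.5, 128 and 47.5 CPM in siWdr5 (1.48 ± 0.43, adjusted p = 0.0121), as were Hsp90aa1 (0.79 ± 0.14, adjusted p = 4.01e-06) and Rps14 (0.85 ± 0.21, adjusted p = 0.00282). Suz12 and Naa35 were lower in siBrca1 than in siWdr5. Suz12 was at 225, 199 and 171 CPM in siWdr5 (-1.73 ± 0.50, adjusted p = 0.0127), and Naa35 at 79.2, 85.3 and 66.4 (-2.58 ± 0.84, adjusted p = 0.0312). Dcn, lower in siBrca1 than in nt, was at 396, 355 and 617 in siWdr5 (-2.04 ± 0.35, adjusted p = 4.01e-06), and Hmga2 was higher in siBrca1 by 0.72 ± 0.20 (adjusted p = 0.00730). Pgk1 (0.34 ± 0.23, interval -0.11 to 0.79), Ldha (-0.04 ± 0.23, -0.49 to 0.41) and Tcf4 (-0.12 ± 0.24, -0.59 to 0.35) showed no difference that passed.

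Against the same nt libraries, 311 genes passed for siBard1 (10.3%), 167 higher (5.54%) and 144 lower (4.78%). For siWdr5, 821 passed (27.2%), 367 higher (12.2%) and 454 lower (15.1%). These comparisons share the nt libraries with that of siBrca1, and their values for the same genes are set side by side in the plot of 3 siRNAs.

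**Figure D4:**
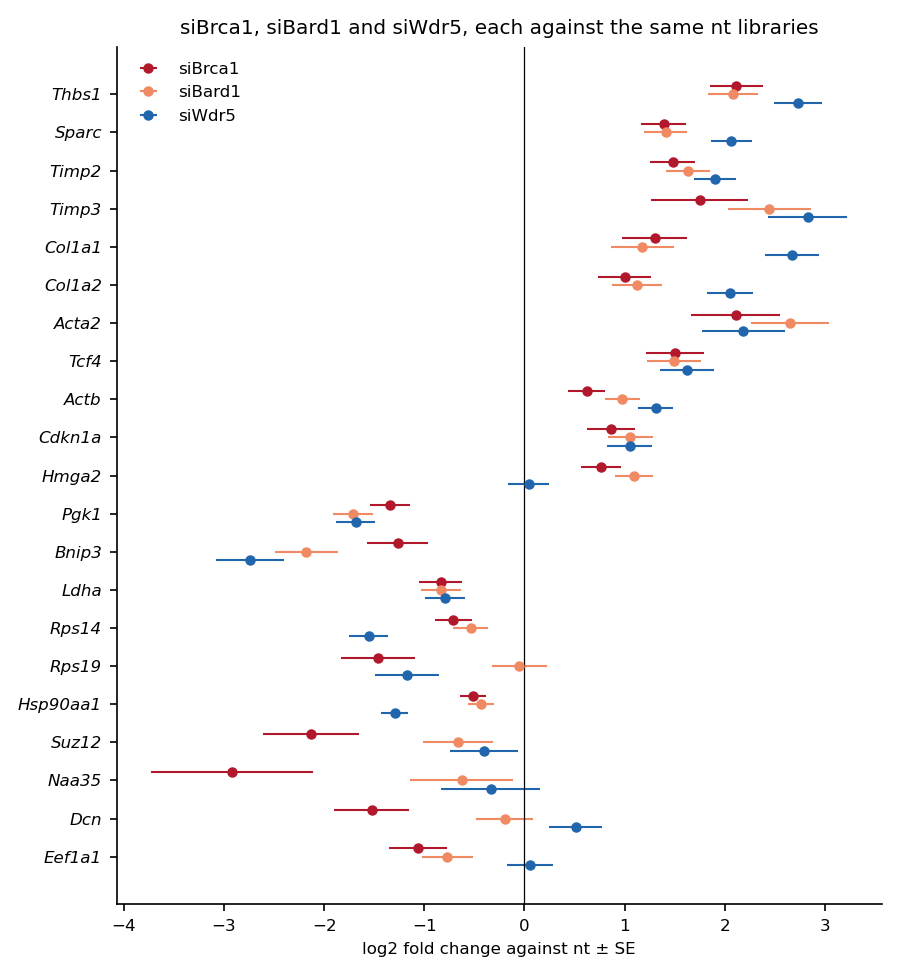
Log2 fold change against nt with its standard error for 21 genes in siBrca1, siBard1 and siWdr5. The 3 sets share the nt libraries, so that points of a gene are not independent. For Suz12 the change was -2.13 in siBrca1, -0.67 in siBard1 and -0.40 in siWdr5, and for Bnip3 it was -1.27, -2.18 and -2.74.

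The time course gave a scale for these genes in libraries that share none with siBrca1 or its controls. Of 3013 genes, 480 differed between day 3 and day 6 (15.9%), 241 higher (8.0%) and 239 lower (7.93%) at day 3. Of the 75 genes higher in siBrca1 than nt, 56 had a fitted level at day 3 above that at day 6 (74.7%, where 49.6% of all tested genes did), 23 passed as higher at day 3 and 3 as lower. The 23 became 16, 10 and 15 without replicates 1, 2 and 3, 12 without the replicate block and 5 by limma. Of the 52 lower genes, 31 were below at day 3 (59.6%, against 50.4% of all tested genes), 13 passed as lower at day 3 and 4 as higher. Without replicate 3, 49 of the 52 were tested, of which 53.1% were below, against 50.4% of all genes, and 3 passed as lower and 2 as higher. The 13 became 9 and 11 without replicates 1 and 2, 7 without the block and 8 by DESeq2. Under RLE size factors, which moved the median of all genes by 0.13, the 75 genes gave 61 above (81.3%, against 56.2% of all genes) and the 52 gave 28 below (53.8%, against 43.8%). At day 0, before induction, 51 of the 75 had a mean level above that at day 6 (68.0%, against 46.5% of all tested genes), as did 12 of the 52 (23.1%). Across all genes the Pearson correlation between the siBrca1 minus nt and the day 3 minus day 6 log2 fold change was 0.194, given as a description, since genes are not independent.

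Thbs1 was at 3704 CPM (SD 288, n = 3) at day 0, 1119 CPM (SD 235, n = 3) at day 3 and 641 CPM (SD 132, n = 3) at day 6, where nt was at 261 CPM (SD 109.9, n = 3) and siBrca1 at 1043 CPM (SD 116, n = 3). Acta2 was at 4046 CPM (SD 821, n = 3) at day 0 and 219.7 CPM (SD 158, n = 3) at day 6, with siBrca1 at 266 CPM (SD 86.7, n = 3). Sparc was at 1037 CPM (SD 72.6, n = 3) at day 6, near siBrca1 at 1066 CPM (SD 88.6, n = 3) and above nt at 413 CPM (SD 60.6, n = 3). Pgk1 was at 563 CPM (SD 160.4, n = 3) at day 6 against 1955 CPM (SD 359, n = 3) in nt and 785 CPM (SD 235, n = 3) in siBrca1. Bnip3 was at 65.5 CPM (SD 10.2, n = 3) against 587 CPM (SD 118, n = 3) and 243 CPM (SD 106, n = 3). Mitochondrially encoded genes took 16.0 to 16.6% of counts in the day 6 libraries, against 16.7 to 19.7% in siBrca1. The part of transfection in the gap between nt and the day 6 time-course libraries was not tested.

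**Figure D5:**
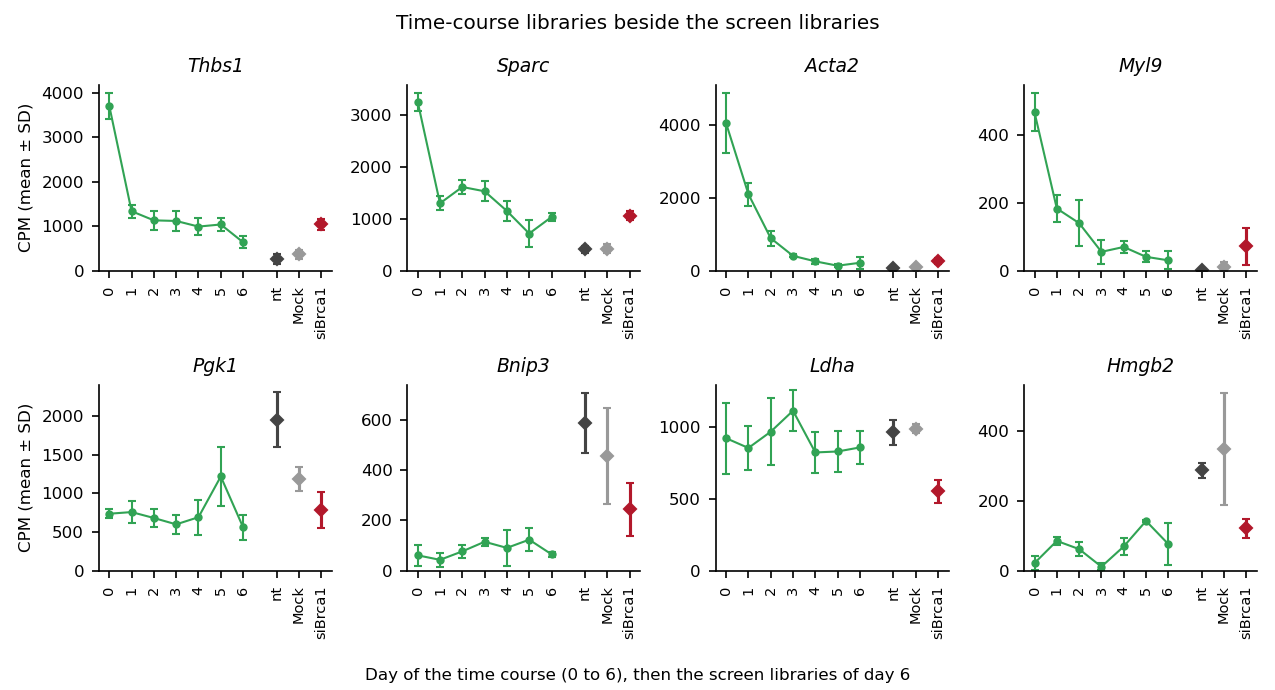
Mean CPM with SD over 3 libraries for each day of the time course (line) and for nt, Mock and siBrca1 at day 6 (diamonds; n = 3, 5 and 3), on linear axes from 0, for 4 genes higher and 4 genes lower in siBrca1. Thbs1, Sparc, Acta2 and Myl9 were highest at day 0, and Pgk1 and Bnip3 in siBrca1 lay between nt and the day 6 library mean.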

How the data were processed

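CEL-Seq2 libraries were made from bulk RNA of each well. The authors aligned reads with Bowtie2 to the mouse genome, counted UMI-corrected molecules per gene, and deposited a table of raw counts. They also deposited a table of log2 values, made by quality filtering with scater, regression of batch effects and log2 transformation of CPM. Column names gave each library its condition, and 127 of 129 libraries were in both tables and were used. Mock had repeated column names, and the log2 column of replicate 3 was matched by its values to the deeper of 2 count columns, which left n = 5.

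Counts were tested with edgeR 4.0.16 in R 4.3.3 (filterByExpr, TMM scaling, quasi-likelihood F test, Benjamini-Hochberg adjustment over 3013 genes) with condition and replicate as terms over the 127 libraries. The replicate number marks the sequenced pool and so pairs libraries. The correlation of siBrca1 with nt deviations was 0.0753, 0.0976 and 0.255 for the same number and -0.144 to 0.0371 otherwise. CPM are counts over the TMM-scaled total of tested genes, and SE is the absolute log2 fold change over the square root of F. DESeq2 1.42.0, limma 3.58.1 on the deposited log2 values, RLE factors, no low-count filter, no block, the compared libraries alone, nt and Mock together, and leaving out each replicate were the alternatives. Scripts were tested on simulated data. One count was worth 8.17 to 34.3 CPM in the siBrca1, nt and Mock libraries, and the exact intervals of count ratios cover counting error only. Intervals of the differences from siBard1 and siWdr5 were made from the edgeR SE.

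Named genes were the 12 largest rises and 12 largest falls against nt that passed, had at least 50 CPM on average in siBrca1 or nt and had the same sign in each replicate, at most 4 called genes per list and direction, Brca1 and its partners, and the cell type markers. Tagln, Cald1, L1td1, Ctsd, Serbp1 and the pseudogenes and predicted genes outside this rule were named after their values were seen. The members and lists were chosen with earlier results of these data known. One marker gene is not reported here.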

Additional observations from a re-analysis of the deposited data

Results flagged for a closer look

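Among 24 genes examined for a library far from the rest of its group, Idi1, an isomerase of isoprenoid synthesis, stood out in Mock. The Mock library of replicate 3 was at 284 CPM, where the nearest other Mock library was at 86.5 CPM and the median was 51.6 CPM, a gap of 0.791 of the whole range. Chance alone sets about 1 in 20 such groups apart.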

How the results depend on the processing

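The number of genes that passed depended on the setting. Against nt it was 127, and 38 with no low-count filter (11 higher, 27 lower), 34 by limma (26 and 8), 43 without the replicate block and 29 to 52 with one replicate left out. Against Mock it was 96, and 29, 9 (6 higher, 3 lower), 46 and 28 to 55 in the same order, and 42 higher and 25 lower with only the compared libraries. Against siBard1 it was 26, and 15 by limma, 15 without the block and 16 to 20 with one replicate left out, with 21 higher and 12 lower under RLE factors, 17 and 11 by DESeq2 and 11 and 11 with no low-count filter. Against siWdr5 it was 301, and 104 with no filter (59 higher, 45 lower), 20 by limma, 126 without the block and 112 to 203 with one replicate left out, with 128 higher and 96 lower by DESeq2. Between day 3 and day 6 it was 480, and 206, 299, 285 and 191 to 299, with 340 higher and 186 lower under RLE factors, 291 and 137 by DESeq2 and, tilted the other way, 94 and 205 by limma. The cause of these shifts was not tested. With mitochondrially encoded genes left out before scaling, an alternative chosen after seeing the data, the counts were 119, 90, 21, 297 and 459. Of 61 named genes that passed, 45 lost their call by limma, 44 with no low-count filter, 34 without the block, 14 with nt and Mock together, 6 under RLE factors, 2 (Hmgb2 and Idi1) with mitochondrially encoded genes left out, and 2 by DESeq2 among those it gave an adjusted p. With mitochondrially encoded genes left out, Lama4 and Mtfr1l were no longer tested. Tubb3, which did not pass (-0.17), was fitted at 0.46 without replicate 3, 0.25 by limma and 0.07 with nt and Mock together. No other named gene changed the sign of its fitted value under these alternatives. Depth limits genes of a few counts, Brca1 among them.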
